A study of Homo sapiens with 4 samples.

Results

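Clustered protocadherins are cadherin-like adhesion proteins of the cell surface, encoded by 3 neighbouring gene families on chromosome 5. The rows taken here are those whose symbol is PCDHA or PCDHAC, PCDHB, or PCDHGA, PCDHGB or PCDHGC followed by a number. They numbered 53 of the 38972 rows of the table, with 15 alpha, 16 beta and 22 gamma genes. The RNA came from HEK293T, an established line of human embryonic kidney origin with many neuronal transcripts. Per the labels, the cells of 2 libraries overexpressed RNase H1, an enzyme that cuts RNA paired with DNA, and those of the other 2 overexpressed the Flag epitope tag. The values are TPM, transcript shares that are corrected for length and brought to 1 common total per library, so levels can be compared between genes.

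Each alpha and gamma gene has its own promoter and its own large variable exon, which is spliced to constant exons shared by the whole family. Each beta gene is complete in a single coding exon and shares none. In neurons a random choice of promoters gives each cell its own set of these proteins, which bind only matching sets on other cells and mark a neuron's own branches as self. The choice uses the insulator protein CTCF and the cohesin ring, which join a chosen promoter to distant enhancers, and DNA methylation keeps promoters silent. The C-type genes at the downstream end of the alpha and gamma families are for the most part expressed outside this random choice.

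RNASEH1, the gene that encodes the overexpressed enzyme, did not bear out the labels. RNASEH1 was listed at 29.93 and 29.67 TPM in the libraries labelled RNase H1, against 32.09 and 32.8 TPM in those labelled Flag (log2 fold change -0.12, SE 0.06, limma adjusted p = 0.260). The sources used here do not say whether this row counts the construct's transcript, so it cannot show whether the enzyme was overexpressed. Every direction below therefore refers to the labels and not to a measured excess of the enzyme. All 8 HEK293T markers, among them IRS4 and LIN28B, had a mean of at least 1 TPM, with sums of 1343 and 1315 TPM in the libraries labelled RNase H1 and 1344 and 1361 TPM in those labelled Flag, mostly from VIM. Single markers moved, 2 higher (HOXA10 and VIM) and 4 lower (IRS4, LIN28B, NEFM and NEFL) at a limma adjusted p under 0.05. The other 2 did not pass it. Of all 15651 tested genes 11.8% passed. IRS4 fell to 106.57 and 99.86 TPM in the libraries labelled RNase H1, against 216.94 and 217.96 TPM in those labelled Flag (log2 -1.07, limma adjusted p = 0.00223). Of 8 neuron markers 7 also had a mean of at least 1 TPM. The 8 summed to 48.34 and 50.72 TPM in the libraries labelled RNase H1 and 47.39 and 45.3 TPM in those labelled Flag. Of 5 fibroblast markers COL1A1 reached 1 TPM, of 5 carcinoma epithelium markers EPCAM and CDH1 did, and of 4 hepatocyte markers ALB did, with TTR and SERPINA1 at 0 in all 4 libraries. The libraries labelled RNase H1 held 24585 and 24568 genes above 0, against 23556 and 23621 in those labelled Flag. The part of these differences in the results on the protocadherins was not tested.

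The 3 families are laid out in order on the plus strand (GENCODE release 29 on GRCh38). The alpha genes lay between 140786136 and 141012347, the beta genes between 141051135 and 141249365, and the gamma genes between 141330571 and 141512981. All 16 beta genes had 1 coding exon, of 2328 to 2454 bp. The alpha genes had a first coding exon of 2352 to 2565 bp and shared 3 further coding exons of 59, 89 and 308 bp. The gamma genes had a first coding exon of 2397 to 2514 bp and shared 3 further coding exons of 59, 89 and 224 bp. This sharing bears on how well reads can be told apart between genes. Of all 100-base words in a gene's longest coding transcript, a median of 54.1% in the alpha genes and 46.5% in the gamma genes occurred in another member as well. In the beta genes the median was 6.04%, with PCDHB8 highest at 25.7% and PCDHB1 at 0. How reads from the shared exons were divided among the alpha and gamma genes is not given in the sources used here, so the levels of single alpha and gamma genes are uncertain. Most beta genes share little sequence with other members, but other transcripts are annotated across some of them on the same strand. ENSG00000279472 overlaps PCDHB8 and PCDHB16, ENSG00000279068 overlaps PCDHB16 and PCDHB9, and ENSG00000279983 overlaps PCDHB14 and PCDHB15, so reads on these genes may be divided too. The last of these transcripts was listed at 0 in all 4 libraries.

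The promoters of the 3 families carry different short words around the same 4 letters. RefSeq promoter windows (GRCh38.p14, 250 bases before to 50 after each gene's start) were matched for 47 of the 53 genes. GGTGGCGCT, searched on both strands, was found in 13 of 14 beta genes with a window, in 0 alpha and in 0 gamma genes, and in 0.501% of all 35116 human promoter windows. GATGTCGCT was found in 9 of 13 alpha genes, in no beta or gamma gene, and in 0.105% of all windows. GCCGCTG was found in 12 of 20 gamma genes, in no alpha or beta gene, and in 11.1% of all windows. All 3 words overlap CGCT, the core of the conserved element of these promoters, and CGCT by itself was found in 46 of the 47 genes but also in 70.0% of all windows. The words were picked by looking at these promoters, and a match is only a description of the letters. The 30-base stretches below, plus strand and 5′ to 3′, hold the family's word in capitals. They are shown for the 3 genes that reached 1 TPM and for beta, gamma and alpha genes described further on.
PCDHGC3 (chr5:141475882-141475911): gggactctgtgtGCCGCTGtcggccaatga
PCDHGC4 (chr5:141484954-141484983): ctgagcccgggaGCCGCTGtctgccaatcg
PCDHGA11 (chr5:141420974-141421003): tgggctctaggcGCCGCTGctcaccaatca
PCDHGA1 (chr5:141330405-141330434): aggactgtgggcGCCGCTGttcactaatct
PCDHGA9 (chr5:141402716-141402745): aggactctgagcGCCGCTGttgatcaactc
PCDHB2 (chr5:141094546-141094575): gagacgcggGGTGGCGCTgcagccttagaa
PCDHB9 (chr5:141187076-141187105): aagccacaaGGTGGCGCTgcagactgaaga
PCDHB5 (chr5:141135181-141135210): aggacgcctGGTGGCGCTgcaggctaagag
PCDHB14 (chr5:141223265-141223294): gagacacatGGTGGCGCTacaggataagac
PCDHB15 (chr5:141245316-141245345): acaacgcatGGTGGCGCTgcaggctaaggc
PCDHB16 (chr5:141182312-141182341): agaacgcgtGGTGGCGCTgcaggttaagat
PCDHA1 (chr5:140786088-140786117): tggccacatGATGTCGCTgtacaccacaaa
PCDHA10 (chr5:140855843-140855872): aagccaccgGATGTCGCTgtcgtccacaaa
In these 13 genes the word began 16 bases (PCDHB5) to 97 bases (PCDHGA1) before the RefSeq gene start.

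Nearly the whole cluster was at low levels. Of the 53 genes, 50 had a mean under 1 TPM over the 4 libraries, and the median of the 53 means was 0.0875 TPM. All 15 alpha and all 16 beta genes were among the 50. A total of 21 genes were listed at 0 in at least 1 library, 9 alpha, 6 beta and 6 gamma. The table has steps of 0.01 TPM and no depth, so a value of a few hundredths may rest on very few reads. Summed over all 53 genes, the cluster came to 14.28 and 14.11 TPM in the libraries labelled RNase H1, against 11.02 and 11.44 TPM in those labelled Flag. In bulk RNA, few cells with a transcript and little transcript in every cell cannot be told apart.

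**Figure D1:**
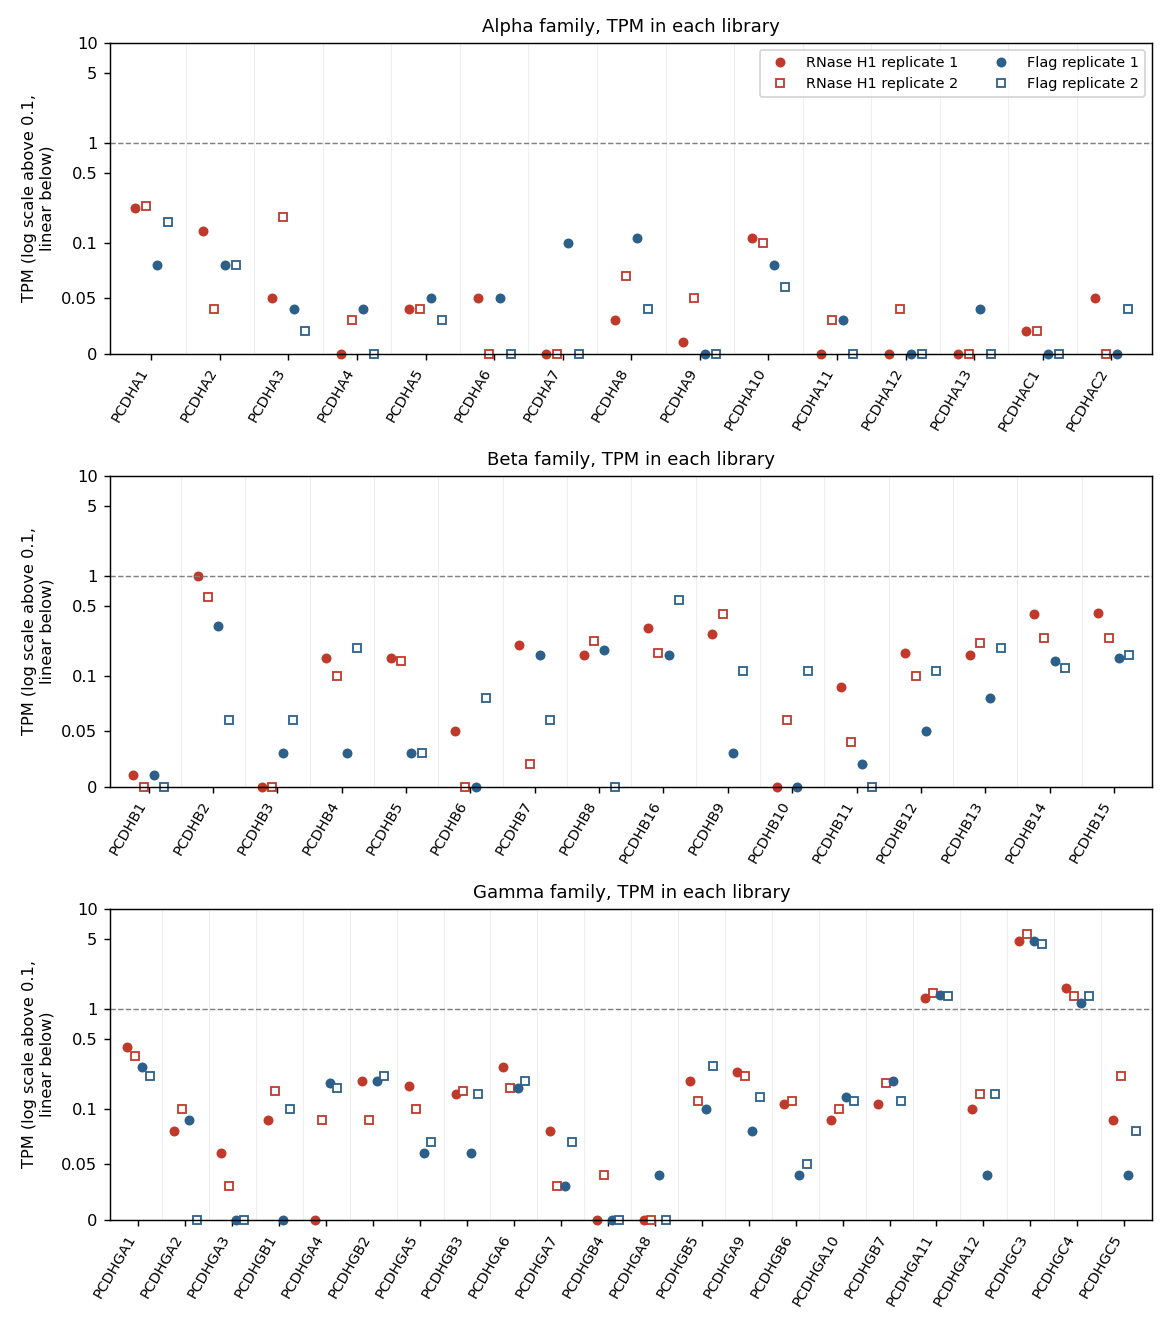
TPM of each of the 53 clustered protocadherins in the 4 libraries, in genomic order, with 1 panel per family. The axis is logarithmic above 0.1 TPM and linear below, and the dashed line marks 1 TPM. PCDHGC3, PCDHGC4 and PCDHGA11 lie above the line in every library, and PCDHB2 comes nearest among the rest, at 0.99 TPM in RNase H1 replicate 1.

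The 3 genes that reached 1 TPM were all gamma genes, and none of them passed the test. PCDHGC3, a C-type gamma gene, was the highest member, at 4.75 and 5.57 TPM in the libraries labelled RNase H1 and 4.74 and 4.42 TPM in those labelled Flag. These groups were separated by only 0.01 TPM. Its means were 5.16 ± 0.580 and 4.58 ± 0.226 TPM (SD, n = 2 each), and the log2 fold change was 0.14 (SE 0.14, 95% interval -0.19 to 0.47, limma adjusted p = 0.528). PCDHGC4, also C-type, had 1.61 and 1.34 TPM in the libraries labelled RNase H1 and 1.14 and 1.33 TPM in those labelled Flag. Here too the groups touched without overlapping, and the log2 fold change was 0.15 (SE 0.20, 95% interval -0.34 to 0.63, limma adjusted p = 0.661). PCDHGA11, the one A-type gene at this level, had 1.29 and 1.45 TPM in the libraries labelled RNase H1 and 1.37 and 1.35 TPM in those labelled Flag. The groups overlapped and the log2 fold change was 0.0053 (SE 0.19, 95% interval -0.46 to 0.47, limma adjusted p = 0.988), a value whose sign turned under other scalings. When 1 library was left out the log2 fold change ran from 0.044 without RNase H1 replicate 2 to 0.24 without RNase H1 replicate 1 for PCDHGC3, and from 0.068 without RNase H1 replicate 1 to 0.23 without RNase H1 replicate 2 for PCDHGC4. The intervals of all 3 genes leave room for changes of up to 0.47 to 0.63 on the log2 scale. Thus 0 of 3 tested members were called, where 11.8% of the 15651 tested genes were (limma adjusted p under 0.05), 6.3% as higher and 5.54% as lower. At an unadjusted p under 0.05 the members' count was also 0 of 3, against 31.3% of the tested genes. The 1853 calls over all genes became 0 without RNase H1 replicate 1, 1 without RNase H1 replicate 2, 1 without Flag replicate 1 and 15 without Flag replicate 2.

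These 3 genes carried most of the cluster's RNA. They made up 53.6% and 59.2% of its summed TPM in the libraries labelled RNase H1, against 65.8% and 62.1% in those labelled Flag. The third C-type gamma gene, PCDHGC5, was far lower, at 0.09 and 0.21 TPM in the libraries labelled RNase H1 and 0.04 and 0.08 TPM in those labelled Flag. Its groups did not overlap but were only 0.01 TPM apart. The C-type alpha genes were lower still. PCDHAC1 was listed at 0.02 TPM in both libraries labelled RNase H1 and at 0 in both labelled Flag. PCDHAC2 was above 0 in 1 library of each group, at 0.05 TPM in RNase H1 replicate 1 and 0.04 TPM in Flag replicate 2. So of the 5 C-type genes, 2 reached 1 TPM and 3 did not.

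The 4 C-type genes with a promoter window had the highest GC content of the cluster, at both high and low levels. The windows of PCDHGC3 and PCDHGC4 had a GC content of 59.0% and 60.7%, close to the median of 58.7% over all human windows. Those of PCDHAC1 and PCDHAC2 were as rich in GC, at 66.0% and 63.0%, with levels near 0. The window of PCDHGA11 had 44.3%, and the median over the 47 genes was 39.7%. The contrast is printed here for the highest gamma and the highest beta gene, as the bases from 250 to 51 before the RefSeq gene start, plus strand, with the family's word in capitals.
PCDHGC3 (chr5:141475716-141475915): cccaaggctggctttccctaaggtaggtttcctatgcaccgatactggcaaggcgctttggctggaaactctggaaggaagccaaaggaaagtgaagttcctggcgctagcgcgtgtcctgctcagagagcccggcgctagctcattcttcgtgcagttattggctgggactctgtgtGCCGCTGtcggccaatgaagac
PCDHB2 (chr5:141094365-141094564): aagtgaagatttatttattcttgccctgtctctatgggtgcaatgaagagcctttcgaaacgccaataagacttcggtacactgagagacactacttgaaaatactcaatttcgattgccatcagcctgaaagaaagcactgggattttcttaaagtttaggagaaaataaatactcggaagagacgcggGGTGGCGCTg
The PCDHGC3 stretch had a GC content of 56.5% with 10 CpG pairs, and the PCDHB2 stretch 42.0% with 8.

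**Figure D2:**
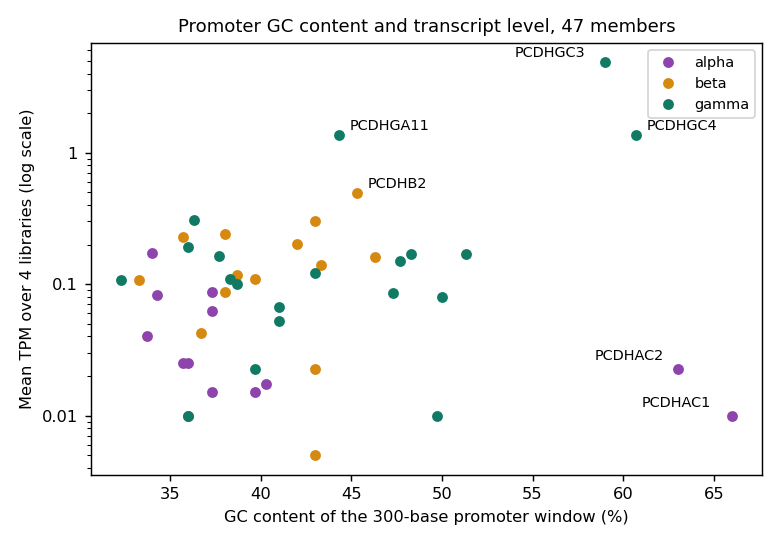
Mean TPM over the 4 libraries (log scale) against the GC content of the 300-base RefSeq promoter window, 1 point for each of 47 clustered protocadherins, coloured by family. PCDHGC3 and PCDHGC4 lie at upper right, and PCDHAC1 and PCDHAC2 have as high a GC content at 0.01 and 0.0225 TPM.

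Among the beta genes, which share no constant exons, the summed level was higher in the libraries labelled RNase H1. It came to 3.52 and 2.56 TPM there, against 1.38 and 1.85 TPM in those labelled Flag. The groups did not overlap, and the ratio of the means was 1.88. The alpha genes together gave 0.71 and 0.83 TPM in the libraries labelled RNase H1, against 0.7 and 0.43 TPM in those labelled Flag, a ratio of 1.36. The gamma sum was 10.05 and 10.72 TPM, against 8.94 and 9.16 TPM, a ratio of 1.15. The alpha and gamma genes under 1 TPM, which are the ones comparable in level to the beta genes, summed to 3.11 and 3.19 TPM in the libraries labelled RNase H1, against 2.39 and 2.49 TPM in those labelled Flag, a ratio of 1.29. The summed level of other low genes of the table moved the same way, with a smaller ratio. The 10263 genes outside the cluster with a mean between 0.005 and 0.492 TPM, the range of the 50 low members, summed to 1540 and 1605 TPM in the libraries labelled RNase H1, against 1372 and 1416 TPM in those labelled Flag, a ratio of 1.13. These sums have no test, since 2 libraries against 2 cannot give an exact p below 0.333 and the genes are not replicates. A sum over few genes also depends more on single genes than a sum over 10263, so the ratios are not directly comparable.

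**Figure D3:**
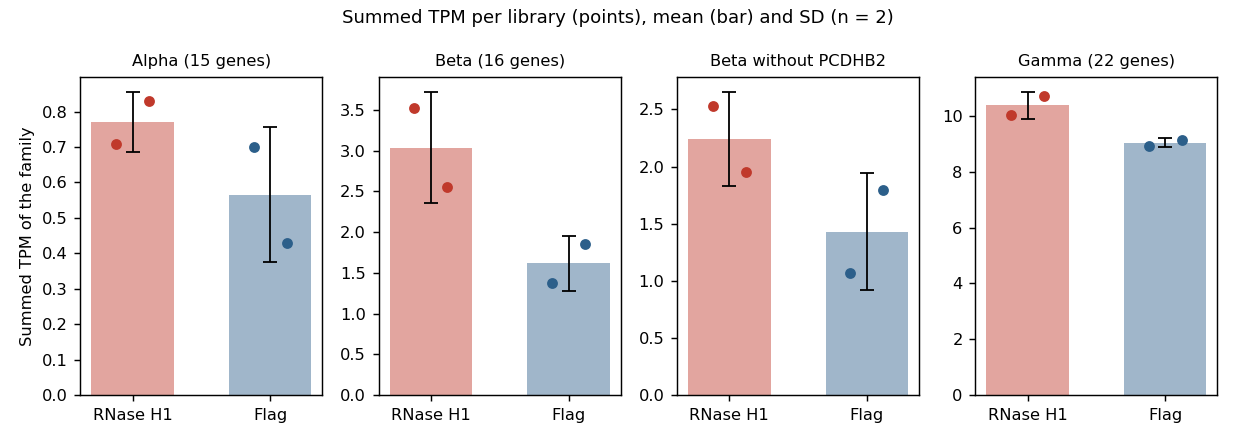
Summed TPM of the alpha, beta and gamma families in each library (points), with the mean (bar) and SD (error bar, n = 2). Each panel has its own axis from 0, and the third panel leaves out PCDHB2. The beta points are 3.52 and 2.56 TPM for RNase H1 and 1.38 and 1.85 TPM for Flag.

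The beta family made up 24.6% and 18.1% of the cluster's summed TPM in the libraries labelled RNase H1, against 12.5% and 16.2% in those labelled Flag. The gamma share was 70.4% and 76.0% in the libraries labelled RNase H1, against 81.1% and 80.1% in those labelled Flag. The difference in the beta share was 7.05 percentage points, and leaving out 1 library at a time it lay between 3.80, when the first RNase H1 library was dropped, and 10.3, when the second was. A single gene had a large part in the beta sum. Without PCDHB2 it was 2.53 and 1.95 TPM in the libraries labelled RNase H1. Those labelled Flag had 1.07 and 1.79 TPM, and the ratio dropped to 1.57. With PCDHB16 left out as well the sum was 2.23 and 1.78 TPM in the libraries labelled RNase H1. Those labelled Flag then had 0.91 and 1.22 TPM, and the ratio was 1.88. The ratio thus depended on which genes were left out.

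PCDHB2 was the highest beta gene. Its levels were 0.99 and 0.61 TPM in the libraries labelled RNase H1, against 0.31 and 0.06 TPM in those labelled Flag. The groups did not overlap, but the spread within each was wide. Fitted with no filter on low values, its log2 fold change on the log2(TPM + 1) scale was 0.60 (SE 0.18, unadjusted p = 0.0280, limma adjusted p = 0.193). With a pseudocount of 0.1 the difference was 1.78, since an added 1 hides most of the change of a gene under 1 TPM.

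PCDHB9, which shares 10.7% of its 100-base words with PCDHB10, had 0.26 and 0.41 TPM in the libraries labelled RNase H1, against 0.03 and 0.11 TPM in those labelled Flag (log2 0.32, SE 0.09, limma adjusted p = 0.195). PCDHB5 had 0.15 and 0.14 TPM, against 0.03 TPM in both libraries labelled Flag (log2 0.15, SE 0.05, limma adjusted p = 0.246). Its replicates lay closest together among these genes. PCDHB14 had 0.41 and 0.24 TPM in the libraries labelled RNase H1, against 0.14 and 0.12 TPM in those labelled Flag. PCDHB15, its neighbour, had nearly the same values, at 0.42 and 0.24 TPM against 0.15 and 0.16 TPM. PCDHB11 was the last beta gene without overlap upward, at 0.09 and 0.04 TPM against 0.02 and 0 TPM.

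Other beta genes did not share this pattern. PCDHB16 had 0.3 and 0.17 TPM in the libraries labelled RNase H1, against 0.16 and 0.57 TPM in those labelled Flag. Its highest value was in Flag replicate 2 and its groups overlapped. ENSG00000279068, annotated across PCDHB16 and PCDHB9, was at 0.37 TPM in Flag replicate 1 and at 0 in the other 3 libraries. ENSG00000279472, annotated across PCDHB16 and PCDHB8, was at 0.33 TPM in RNase H1 replicate 1 and at 0 in the rest. PCDHB3 was listed at 0 in both libraries labelled RNase H1 and at 0.03 and 0.06 TPM in those labelled Flag, the only beta gene without overlap downward. The other 8 beta genes, PCDHB1, PCDHB4, PCDHB6, PCDHB7, PCDHB8, PCDHB10, PCDHB12 and PCDHB13, overlapped between groups, at 0.22 TPM or less in every library. PCDHB1, which lies apart from the rest of its family and lacked the beta promoter word, was the lowest member of all, at 0.01 TPM in 1 library of each group and 0 in the others.

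Counted by direction, 6 of 16 beta genes were higher without overlap and 1 was lower. Among the alpha genes 5 of 15 were higher and 0 lower, and among the gamma genes 8 of 22 were higher and 2 lower. Over the 53 genes this made 19 higher (35.8%) and 3 lower (5.66%), and over the 50 under 1 TPM 17 higher (34.0%) and 3 lower (6%). In the 10263 other genes of the same range 15.3% were higher without overlap and 10.1% lower, in all 12505 other genes under 1 TPM with any value above 0 16.6% and 11.4%, and in the tested genes 31.3% and 29.4%. Among genes from 0.1 TPM up to that range's top, 9 of 23 members were higher and 2 lower, against 19.3% higher and 15% lower of 5127 other genes. The share of beta genes that moved upward without overlap (37.5%) was close to that of the alpha and gamma genes together (35.1%), although the summed levels differed more. The difference between the families was not tested. The median log2 fold change on the log2(TPM + 1) scale was 0.07 over the beta, 0.05 over the gamma and 0.0054 over the alpha genes, against 0.02 over the other low genes and 0.0035 over all tested genes.

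The test gave no call on any of these genes. Fitted with no filter, 0 of 53 members passed the adjusted threshold, as did 0 of all 28206 genes with a value above 0. At an unadjusted p under 0.05 there were 3 members, PCDHB2, PCDHB9 and PCDHB5, against 20% of all genes in that fit. The members' share, 3 of 53, was below that of all genes, but the background was not matched in level. In the separate limma fit of the 15651 genes averaging at least 1 TPM, 31.3% had an unadjusted p under 0.05. Of the 53 members, 50 were under 1 TPM. The share among other genes of their level was not counted, so no deficit can be read from this comparison. The 3 members with an unadjusted p under 0.05 were all beta genes, 3 of 16, and 0 of 37 alpha and gamma genes had one. The beta share was near the 20% of all genes in that fit, so no beta trait can be read from it.

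Low gamma and alpha genes differed in both directions. PCDHGA1, at the upstream end of the gamma family, had 0.41 and 0.34 TPM in the libraries labelled RNase H1, against 0.26 and 0.21 TPM in those labelled Flag (log2 0.15, SE 0.08, limma adjusted p = 0.417 with no filter). PCDHGA9 had 0.23 and 0.21 TPM, against 0.08 and 0.13 TPM in the libraries labelled Flag. The largest difference downward was that of PCDHGA4, at 0 and 0.09 TPM in the libraries labelled RNase H1, against 0.18 and 0.16 TPM in those labelled Flag (log2 -0.16, SE 0.07, limma adjusted p = 0.327). PCDHA1 was the highest alpha gene, at 0.22 and 0.23 TPM in the libraries labelled RNase H1, against 0.08 and 0.16 TPM in those labelled Flag. PCDHA10 had 0.11 and 0.1 TPM, against 0.08 and 0.06 TPM in the libraries labelled Flag, and no alpha gene besides PCDHA1 had a mean of 0.1 TPM.

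The A-type genes summed to 2.77 and 2.75 TPM in the libraries labelled RNase H1, against 2.44 TPM in both labelled Flag. The B-type genes summed to 0.83 and 0.85 TPM in the libraries labelled RNase H1, against 0.58 and 0.89 TPM in those labelled Flag, and overlapped. Of the B-type genes only PCDHGB6 was higher without overlap, at 0.11 and 0.12 TPM against 0.04 and 0.05 TPM in the libraries labelled Flag. PCDHGA5 had 0.17 and 0.1 TPM, against 0.06 and 0.07 TPM, and PCDHGA3 had 0.06 and 0.03 TPM where both libraries labelled Flag were at 0. PCDHGA10 ran the other way, at 0.09 and 0.1 TPM in the libraries labelled RNase H1 and 0.13 and 0.12 TPM in those labelled Flag. Most of these differences were under 0.1 TPM, in a table with steps of 0.01 TPM. PCDHGA8 and PCDHGB4 were above 0 in 1 library each, at 0.04 TPM, the first in Flag replicate 1 and the second in RNase H1 replicate 2.

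In the alpha family PCDHA3 had 0.05 and 0.18 TPM in the libraries labelled RNase H1, against 0.04 and 0.02 TPM in those labelled Flag. PCDHA9 had 0.01 and 0.05 TPM where both libraries labelled Flag were at 0. Neither was past an adjusted p of 0.05 with no filter (limma adjusted p = 0.552 and 0.692). The other 10 alpha genes besides PCDHA1, PCDHA10 and PCDHAC1 overlapped between groups, with no value above 0.13 TPM. PCDHA7, PCDHA12 and PCDHA13 were above 0 in a single library, so no direction can be read from them.

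The gene between the beta and gamma families stood apart from both in level, and it rose. TAF7, which encodes a subunit of the general transcription factor TFIID and lies there on the opposite strand, had 132.07 and 127.23 TPM in the libraries labelled RNase H1, against 94.97 and 96.17 TPM in those labelled Flag. It rose by 0.44 on the log2 scale (SE 0.05, limma adjusted p = 0.0101), and the groups were far apart. SLC25A2, an intronless gene for a mitochondrial ornithine carrier within the TAF7 locus, was listed at 0 in 3 libraries and at 0.17 TPM in Flag replicate 2. Of the listed genes between and beside the families, 18 were tested, 3 rose, 1 fell and 14 were not called, which is 22.2% called against 11.8% of all tested genes. DIAPH1, a formin just downstream of the gamma family, rose by 0.29 (SE 0.06, limma adjusted p = 0.0392). Upstream of the alpha family IK, a splicing factor, rose by 0.20 (SE 0.04, limma adjusted p = 0.0366) and TMCO6 had a log2 fold change of -0.52 (SE 0.09, limma adjusted p = 0.0271). The median log2 fold change of these 18 genes was 0.02. Whichever of the 4 libraries was left out, 0 calls remained in this list, as in each of the lists described next.

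**Figure D4:**
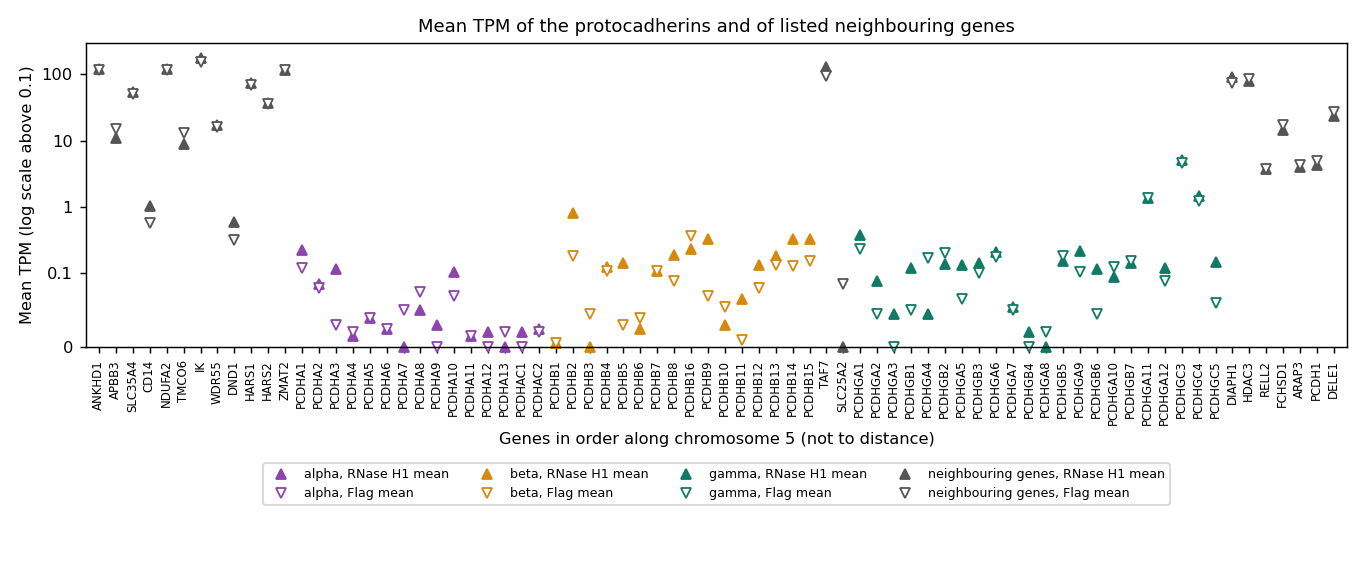
Mean TPM (log scale above 0.1) of the 53 clustered protocadherins and of listed neighbouring genes, in order along chromosome 5, with filled upward triangles for the libraries labelled RNase H1 and open downward triangles for those labelled Flag. TAF7, between the beta and gamma genes, stands near 100 TPM beside genes under 1 TPM, and the gamma genes at or above 1 TPM are PCDHGA11, PCDHGC3 and PCDHGC4.

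Noncoding transcripts annotated inside the cluster were low too, and most were at 0 throughout. Of 20 such rows found by Ensembl identifier, 12 were at 0 in all 4 libraries, among them 9 of 13 antisense transcripts. Antisense transcription through a variable exon has been linked to the choice of alpha promoters. The strand setting is not given in the sources used here, so absence of antisense transcription cannot be read from these rows. The highest row was ENSG00000272070, a long intergenic transcript just upstream of PCDHGA1, at 0.95 and 1.35 TPM in the libraries labelled RNase H1, against 0.62 and 0.58 TPM in those labelled Flag. The groups did not overlap, in the same direction as PCDHGA1. ENSG00000280026, antisense at PCDHGB1, was listed at 0 in both libraries labelled RNase H1 and at 0.25 and 0.18 TPM in those labelled Flag.

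Transcripts of the proteins that choose and silence these promoters all averaged 1 TPM or more. CTCF had 79.61 and 71.45 TPM in the libraries labelled RNase H1, against 71.42 and 71.43 TPM in those labelled Flag (log2 0.08, SE 0.07, limma adjusted p = 0.473). The cohesin subunit RAD21 had a log2 fold change of 0.08 (SE 0.05, limma adjusted p = 0.336). SMCHD1, which represses the cluster, had 0.13 (SE 0.07, limma adjusted p = 0.272). Leaving out 1 library moved these values, for CTCF to 0.00050 without RNase H1 replicate 1 but 0.15 when RNase H1 replicate 2 was dropped, for RAD21 to 0.027 and 0.12 in the same order, and for SMCHD1 to 0.19 without Flag replicate 1 but 0.070 when Flag replicate 2 was dropped. Of 28 listed regulators 3 rose, 1 fell and 24 were not called, 14.3% called against 11.8% of all tested genes, with a median of 0.08. LRIF1, a binding partner of SMCHD1, rose to 55.24 and 47.79 TPM in the libraries labelled RNase H1, against 32.34 and 34.77 TPM in those labelled Flag (log2 0.60, SE 0.09, limma adjusted p = 0.0176). The cohesin-protecting factor CDCA5, also called sororin, rose by 0.34 (SE 0.05, limma adjusted p = 0.0164) and the cohesin release factor WAPL by 0.29 (SE 0.05, limma adjusted p = 0.0267). The member that fell was DNMT3B, a DNA methyltransferase, with a log2 fold change of -0.34 (SE 0.07, limma adjusted p = 0.0350).

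Listed partners of clustered protocadherins, among them the WAVE actin regulators, the kinases PTK2 and PTK2B and the proteases that cleave protocadherins, were tested in 25 genes, of which 0 rose, 2 fell and 23 were not called. The members that fell were CYFIP2, of the WAVE complex, with a log2 fold change of -0.35 (SE 0.08, limma adjusted p = 0.0449), and VPS28, of the ESCRT sorting machinery, with -0.37 (SE 0.09, limma adjusted p = 0.0478). The 8% called was below the 11.8% of all tested genes, and the median was -0.03.

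Related genes outside the cluster ranged from 0 to well above every clustered gene, with 5 of 22 non-clustered protocadherins and giant cadherins and 13 of 19 classical cadherins under 1 TPM. PCDH10, a protocadherin of a separate locus, had 19.92 and 18.95 TPM in the libraries labelled RNase H1 and 18.47 and 19.98 TPM in those labelled Flag. Of 17 tested genes among the non-clustered protocadherins and giant cadherins 2 rose, 0 fell and 15 were not called, with a median of 0.02. The share called was 11.8%, as over all tested genes. PCDH9 rose to 17.72 and 17.87 TPM, against 12.37 and 11.56 TPM in the libraries labelled Flag (log2 0.54, SE 0.08, limma adjusted p = 0.0210). The other call, PCDH8, had 2 and 2.1 TPM in the libraries labelled RNase H1, against 0.47 and 0.28 TPM in those labelled Flag. It passed the minimum of 1 TPM only through the libraries where it was high, so its call (limma adjusted p = 0.0284) supports nothing here. Its log2 fold change was 1.15, but 2.21 with a pseudocount of 0.1 and 0.39 with one of 5, and with no filter the limma adjusted p was 0.0842. Of 19 classical cadherins 6 were tested and 0 were called, with a median of -0.20 and 2 of 6 at an unadjusted p under 0.05, near the 31.3% of all tested genes. CDH2, N-cadherin, was the highest, at 27.08 and 24.32 TPM in the libraries labelled RNase H1 and 27.28 and 27.57 TPM in those labelled Flag.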

How the data were processed

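The authors deposited 1 table of TPM with a column per library (2 labelled RNase H1, 2 labelled Flag). Per the submitters' processing notes STAR and hg38 were used. For the versions, quantification program, annotation release and strand setting the sources used here give nothing. Per the labels' protocols, RNA was extracted with TRIzol and an mRNA-seq kit was used. Nothing says that replicates were separate cultures, so p-values measure the spread between these libraries, which may be technical. TPM keeps no depth, so no counting intervals are given.

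Genes averaging 1 TPM or more were tested with limma 3.58.1 (R 4.3.3) on log2(TPM + 1), with a group term and variances following an intensity trend, two-sided, with Benjamini-Hochberg adjustment over all tested genes. Low members were taken from the same fit with no filter. The procedure was run on normal values simulated with variances from its own fit. Such a run cannot show how far calls on the real libraries hold. Members and lists were chosen with earlier results of these data known. The genes named by rule were RNASEH1, members of at least 1 TPM, the 3 highest below it, CTCF, RAD21, SMCHD1, TAF7, SLC25A2 and up to 3 called genes per list with the smallest p. Other named genes, the overlap counts, the 0.1 TPM bound and the sums without PCDHB2 or PCDHB16 were chosen after values were seen. Some marker genes are not reported here. Genes of the lists under 1 TPM were not tested, and PCDH1 stands in 2 lists. Exons and coordinates came from GENCODE release 29, found by symbol or identifier. Alternatives were pseudocounts of 0.1 and 5, no filter, a minimum of 5 TPM, quantile and median-of-ratios scaling, no intensity trend, a replicate block and leaving out each library. Figures used matplotlib 3.10.9.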

Additional observations from a re-analysis of the deposited data

How the results depend on the processing

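Over all genes 1853 were called. The count was 0 with no filter on low values (5655 at an unadjusted p under 0.05), 1 with no intensity trend (4337) and 0 to 15 when 1 library was left out, fits in which the lone library of an arm is assumed to vary like the other arm. Of the clustered protocadherins 0 were called in any of these settings, and with a minimum mean of 5 TPM none was left to test. The counts of called regulators (4), partners (2), non-clustered protocadherins (2) and neighbouring genes (4) were 0 with no filter, 0 with no intensity trend and 0 whichever 1 library was left out. A minimum of 5 TPM gave 7 regulators and 1 non-clustered protocadherin, where fewer genes were tested. Quantile normalization gave 1 partner. The causes of the other losses were not tested. The median over the beta genes was 0.35 and that over the gamma genes 0.24 with a pseudocount of 0.1, by its construction larger than with 1. Without 1 library they lay from 0.035 to 0.10 and from 0.027 to 0.067, and the beta share difference from 3.80 to 10.3 percentage points. PCDHGA11 turned sign under median-of-ratios scaling (-0.0038), quantile normalization (-0.018) and without 1 library (-0.043 to 0.054), never called. The difference of PCDHB16 lay from -0.35 to 0.088 without 1 library. With the replicate number as a block 2442 genes and 0 of 3 tested members were called. Same-numbered libraries correlated at 0.0307 in their deviations from the group means over the tested genes. With 2 libraries per group the deviations mirror each other, so both pairs give the same value. The labels give these libraries only a shared number, and whether they share a batch was not tested.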

Other observations

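CDH8, a classical cadherin under the 1 TPM minimum and chosen after its values were seen, was listed at 0.84 and 1.17 TPM in the libraries labelled RNase H1 and at 0 in both labelled Flag. No fold is given against a group at 0, and with no count table the depth behind these values is unknown.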
